A study of Mus musculus with 6 samples.

Results

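The genes described here are Dcaf8 and 9 genes that encode the core of the CUL4-DDB1 ubiquitin ligases and the machinery that switches them on: Cul4a, Cul4b, Ddb1, Rbx1, Dda1, Det1, Ddb2, Nedd8 and Cand1. They were chosen by symbol, as the textbook subunits and neddylation partners of these ligases plus the gene deleted in the study, and they are 10 of the 55357 genes in the count table. All 10 were found and all 10 passed the filter on low counts, which left 14592 genes to test. RNA was sequenced from LT-HSCs, the long-lived blood stem cells of bone marrow, sorted as Lin-Sca-1+c-Kit+CD150+CD48- cells. The 2 groups were 3 libraries from young Dcaf8 knockout (Dcaf8 KO) mice and 3 libraries from young wild-type (WT) mice. Each library was made from 50 cells by full-length mRNA amplification. The labels do not describe the knockout allele, the deleted exons, the strain, the sex or the age in weeks.

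A cullin-RING ligase attaches ubiquitin to chosen proteins. In the CUL4 branch, the scaffold CUL4A or CUL4B holds the RING protein RBX1, which brings the charged E2 enzyme, at one end and the adaptor DDB1 at the other. DDB1 carries an exchangeable substrate receptor, and DCAF8 is one of these WD40-repeat receptors. Conjugation of the small protein NEDD8 to the cullin activates the ligase, the COP9 signalosome removes it again, and CAND1 helps to swap receptors on cullins that lack it. Deleting Ddb1 in mouse blood cells is known to deplete stem and progenitor cells.

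Total counts were 14461864 to 22386387 per library. The summed level of 8 LT-HSC genes was 1940 to 2290 CPM (counts scaled to a common library total) in the Dcaf8 KO libraries and 2060 to 2180 CPM in the WT libraries. The CD48 gene, whose product the sort excluded, had 9.78 to 34.4 CPM in Dcaf8 KO and 0.0501 to 11.7 CPM in WT. A pair of libraries stood apart. WT replicate 2 had 6190 CPM over 8 neutrophil granule genes, against 230 to 289 CPM in Dcaf8 KO and no more than 174 CPM in the other WT libraries. Prtn3 alone had 202 to 276 CPM in Dcaf8 KO and 112 to 156 CPM in WT, most of that sum outside WT replicate 2. Dcaf8 KO replicate 3 had 50.7 CPM of Xist and none of Ddx3y, against at most 1.25 CPM of Xist and at least 56.4 CPM of Ddx3y in each other library, so it carried female transcripts and the others male ones. Erythroid genes summed to 19.3 to 32.4 CPM in Dcaf8 KO and 18.3 to 62 CPM in WT. Macrophage genes summed to 393 to 508 CPM in Dcaf8 KO and 436 to 903 CPM in WT. WT replicate 2 held the WT maximum of the erythroid and macrophage sums, where the next WT library had 28.2 and 575 CPM. Lyz2 alone had 388 to 494 CPM in Dcaf8 KO and 421 to 879 CPM in WT, most of the macrophage sum in every library. B-cell genes summed to at most 0.581 CPM in Dcaf8 KO and 4.41 CPM in WT, the latter in WT replicate 2. Megakaryocyte genes summed to 506 to 968 CPM in Dcaf8 KO and 494 to 809 CPM in WT. Of the T and NK genes only Nkg7 had counts, at 72.7 to 161 CPM in Dcaf8 KO and 86.9 to 107 CPM in WT. Adgre1, Ebf1, Cd3e and Cd3g had no count in any library. In bulk RNA of this kind, fewer cells of a type and less RNA per cell cannot be told apart.

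Among the 10 genes, Dcaf8 was the one with separated groups. Its transcript was at 20.03% of the WT mean in Dcaf8 KO cells, and the groups overlapped for each of the other genes. Dcaf8 (ENSMUSG00000026554, chromosome 1) had 74.3, 38.1 and 45.2 TMM-normalised CPM in the 3 Dcaf8 KO libraries, against 290.5, 293 and 204 CPM in the 3 WT libraries. The highest Dcaf8 KO library lay well below the lowest WT library, and none of the Dcaf8 KO libraries was at 0. The counts cover the whole gene and the deleted exons are not given, so the remaining reads could not be placed on the transcript. The log2 fold change was -2.28 ± 0.28 (SE; 95% interval -2.93 to -1.63; n = 3 each), the smallest unadjusted p of all genes tested. Over all genes, edgeR's quasi-likelihood test gave an adjusted p of 0.739 for Dcaf8. DESeq2 gave an adjusted p of 1.89e-09 on the same counts, so the call depended on the test. edgeR called 0.0% of the 14592 genes tested at an adjusted p under 0.05. DESeq2 called 0.902% of the 16964 genes to which it gave an adjusted p, a different set. Without both libraries that stood apart, WT replicate 2 and Dcaf8 KO replicate 3, the log2 fold change was -2.07, with an edgeR adjusted p of 0.789.

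For the other 9 genes, edgeR called 0, DESeq2 called 0 and 0 had an unadjusted p under 0.05, against 5.82% of all genes tested. In 0 of the 9 were the groups separated, where 4.43% of all genes were separated with Dcaf8 KO lower and 5.91% with Dcaf8 KO higher. Their log2 fold changes ran between -0.37 and 0.24, with 5 above and 4 below 0 and a median of 0.03; over all genes tested the median was 0.01 and 50.9% were above 0. For 6 of the 9, the 95% interval stayed within 1 log2 unit on either side of 0. The intervals of Cul4b, Det1 and Ddb2 reached further, so a change of that size remained possible for these genes. Adjusted p-values by edgeR were 0.955 to 1.0 for these 9 genes.

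**Figure D1:**
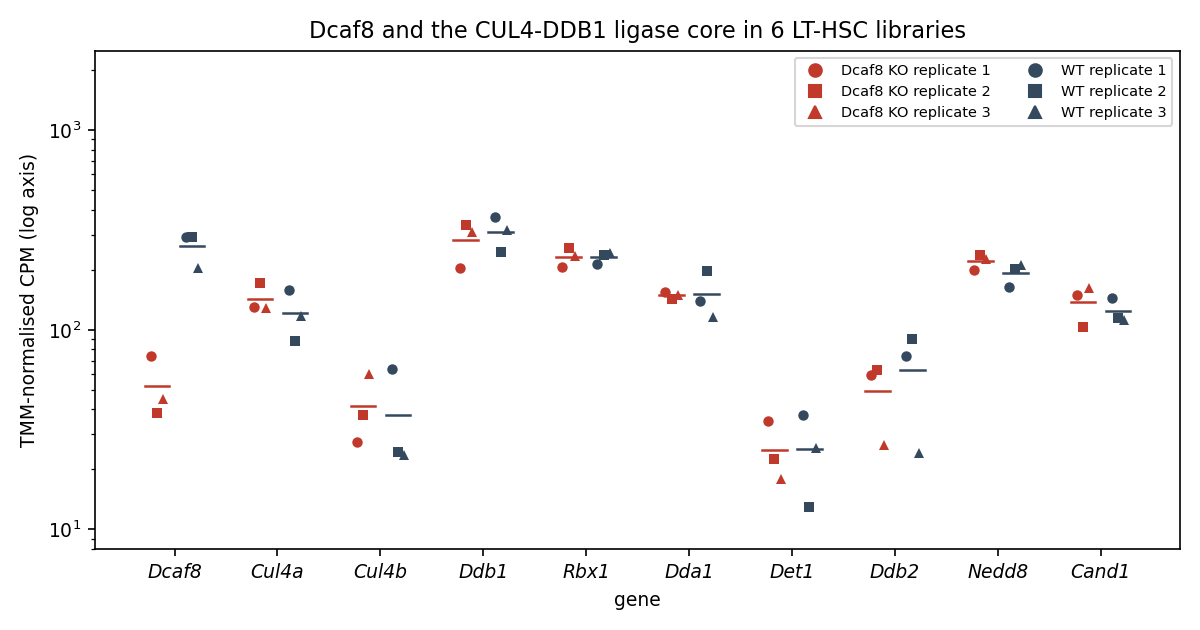
Level of each of the 10 genes in every library (TMM-normalised CPM, logarithmic axis), with Dcaf8 KO points left of WT points and bars at the group means. Dcaf8 sits at 38.1 to 74.3 CPM in Dcaf8 KO and 204 to 293 CPM in WT, and the groups overlap for the other 9 genes.

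The plot of levels by library shows how unequal the spread was among genes of one complex. For Rbx1 and Nedd8 the highest library was 1.25 and 1.44 times the lowest, and for Cul4b, Det1 and Ddb2 it was 2.7, 2.9 and 3.7 times the lowest.

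The plot of fold changes sets these differences beside their intervals.

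**Figure D2:**
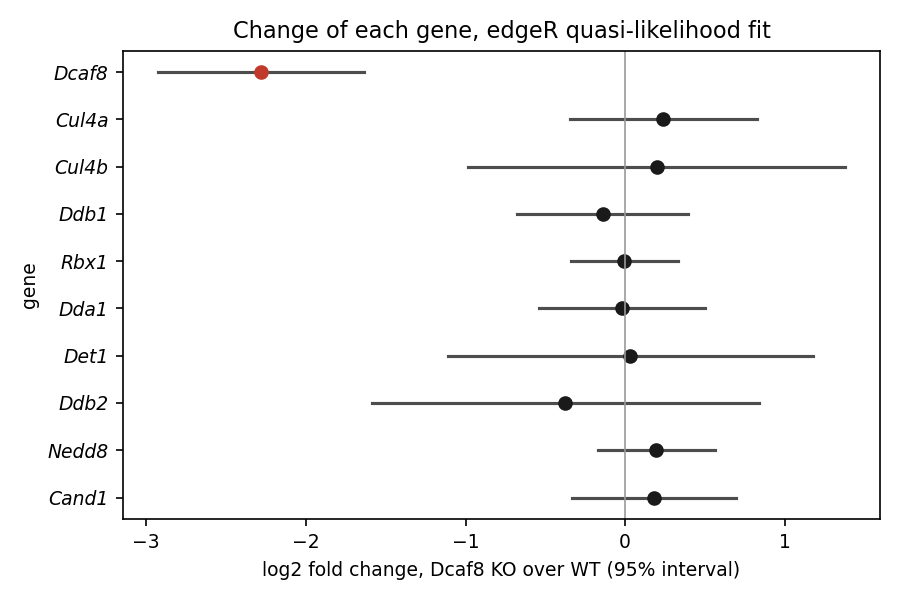
Log2 fold change of Dcaf8 KO over WT for each of the 10 genes by edgeR, with 95% intervals as lines. Dcaf8 is at -2.28 and its interval ends at -1.63, while the intervals of the other 9 genes all cross 0 and are narrowest for Rbx1 and Nedd8.

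The 2 scaffold genes were both detected in every library. Cul4a (ENSMUSG00000031446, chromosome 8) had 130.2, 171 and 129 CPM in Dcaf8 KO, against 158, 88.1 and 117 CPM in WT. The groups overlapped, with the lowest value in WT replicate 2, the library with neutrophil transcripts. The log2 fold change was 0.24 ± 0.25 (95% interval -0.35 to 0.82; edgeR adjusted p = 0.969). It was 0.05 without WT replicate 2, 0.11 without Dcaf8 KO replicate 2 and 0.47 without WT replicate 1. Cul4b (ENSMUSG00000031095, chromosome X) had 27.3, 37.6 and 59.9 CPM in Dcaf8 KO, against 63.8, 24.4 and 23.6 CPM in WT. One library of each genotype was high, Dcaf8 KO replicate 3 and WT replicate 1, and the others were alike. The log2 fold change of Cul4b was 0.20 ± 0.51 (95% interval -0.98 to 1.379; edgeR adjusted p = 0.986). This gene is X-linked and Dcaf8 KO replicate 3 is the female library, but the highest library was male; the part of sex in these values was not tested. Without Dcaf8 KO replicate 3 the log2 fold change was -0.21, and it was -0.04 without WT replicate 2, -0.05 without WT replicate 3 and 0.80 without WT replicate 1, so the Cul4b value has no stable sign.

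Cul4a and Cul4b are paralogs, and their transcripts could exchange reads only where they are identical. Their longest identical coding run is 26 bases (capitals below), near the 3′ end of the coding sequence, starting at coding base 1999 in Cul4a and 2632 in Cul4b. It is shown 5′ to 3′ with 20 bases on each side, in windows that cover coding bases 1979 to 2044 of Cul4a and 2612 to 2677 of Cul4b.
Cul4a: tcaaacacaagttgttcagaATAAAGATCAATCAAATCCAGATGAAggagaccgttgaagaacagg
Cul4b: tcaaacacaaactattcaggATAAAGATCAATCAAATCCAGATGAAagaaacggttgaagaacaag
The flanks differ in letters, so a read that extends far enough beyond the run separates the 2 genes. Within a library, Cul4b made up 17.3%, 18.0% and 31.7% of the Cul4a plus Cul4b counts in Dcaf8 KO, against 28.8%, 21.7% and 16.8% in WT. The means were 22.4% ± 8.14 in Dcaf8 KO and 22.4% ± 6.04 in WT (SD, n = 3 each), and the two-sided exact permutation p was 1.0. This share needs no scaling between libraries, and Cul4a supplied the larger part of the scaffold counts in all 6 libraries.

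Ddb1 (ENSMUSG00000024740, chromosome 19), the adaptor that holds every receptor of this class, had 204, 334 and 310 CPM in Dcaf8 KO, against 369, 244 and 317 CPM in WT. Dcaf8 KO replicate 1 was the lowest library, and the other 5 overlapped. The log2 fold change was -0.14 ± 0.23 (95% interval -0.68 to 0.39; edgeR adjusted p = 0.976), and without Dcaf8 KO replicate 1 it was 0.05. Set against this adaptor, the receptor transcript amounted to 36.4, 11.4 and 14.6 Dcaf8 counts per 100 Ddb1 counts in Dcaf8 KO, against 78.8, 120 and 64.2 in WT. The groups were separated, and the means were 20.8 ± 13.6 in Dcaf8 KO and 87.5 ± 28.8 in WT (SD, n = 3 each). The two-sided exact permutation p was 0.1, the smallest that 3 against 3 allows, and 0.15 after Benjamini-Hochberg adjustment over 3 such tests. Dcaf8 KO replicate 1, with the highest ratio of its group, had both the highest Dcaf8 and the lowest Ddb1 level of the 3. Without WT replicate 2 and Dcaf8 KO replicate 3 the difference in means was -47.6, against -66.8 with all libraries.

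**Figure D3:**
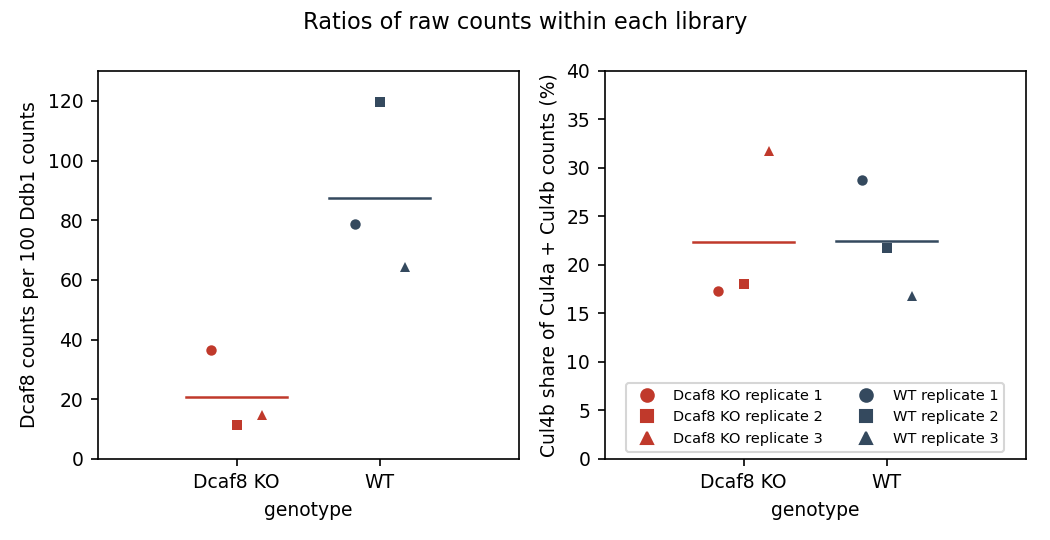
Dcaf8 counts per 100 Ddb1 counts (left) and Cul4b as a percentage of Cul4a plus Cul4b counts (right) in each library, with Dcaf8 KO left of WT and bars at the means. The left panel has 11.4 to 36.4 in Dcaf8 KO and 64.2 to 120 in WT, and in the right panel both means are 22.4%.

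The plot of within-library ratios gives the receptor to adaptor balance and the scaffold balance side by side: the first is separated by genotype and the second overlaps.

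Rbx1 (ENSMUSG00000022400, chromosome 15), the RING subunit that CUL4 shares with other cullins, had 206, 256 and 234 CPM in Dcaf8 KO, against 214, 238 and 243 CPM in WT. The 6 libraries differed by at most 1.25-fold, and the log2 fold change was -0.01 ± 0.14 (95% interval -0.34 to 0.33; edgeR adjusted p = 1.0). Rbx1 has a close processed pseudogene copy, Rbx1-ps. Rbx1-ps held 3, 8 and 8 counts in Dcaf8 KO and 20, 22 and 13 counts in WT, in all 0.274% of the Rbx1 counts. Reads from identical stretches cannot be assigned by sequence, so both genes carry that uncertainty. The 3 Dcaf8 KO counts of Rbx1-ps were below the 3 WT counts, with a log2 fold change of -1.54 ± 0.74 (edgeR adjusted p = 0.866).

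The 2 accessory subunits that sit on DDB1 were at unlike levels. Dda1 (ENSMUSG00000074247, chromosome 8), a small DDB1-bound protein, had 155, 142 and 150.3 CPM in Dcaf8 KO, against 140, 198 and 116 CPM in WT. The Dcaf8 KO libraries lay inside the WT range, and the log2 fold change was -0.02 ± 0.22 (95% interval -0.54 to 0.50; edgeR adjusted p = 1.0). Det1 (ENSMUSG00000030610, chromosome 7), which joins DDB1, DDA1 and an E2 enzyme, had 34.8, 22.5 and 17.9 CPM in Dcaf8 KO, against 37.5, 12.9 and 25.6 CPM in WT. The log2 fold change of Det1 was 0.03 ± 0.49 (95% interval -1.11 to 1.18; edgeR adjusted p = 1.0). A change of 2-fold in Det1 lies inside that interval, so these data did not exclude it.

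Ddb2 (ENSMUSG00000002109, chromosome 2), the receptor that finds ultraviolet damage in DNA, had 59.5, 62.6 and 26.5 CPM in Dcaf8 KO, against 74.3, 89.8 and 24.3 CPM in WT. Replicate 3 was low in both genotypes, and the other 4 libraries lay between 59.5 and 89.8 CPM. The log2 fold change was -0.37 ± 0.52 (95% interval -1.59 to 0.84; edgeR adjusted p = 0.974). Xpc, the damage sensor that takes over from DDB2, was looked at after its values were seen: it had 122, 70.3 and 54.9 CPM in Dcaf8 KO, against 115, 89.7 and 34.5 CPM in WT. For both genes WT replicate 3 was the lowest library and Dcaf8 KO replicate 3 the next.

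Nedd8 (ENSMUSG00000010376, chromosome 14), the modifier that activates cullins, had 199.8, 236 and 227 CPM in Dcaf8 KO, against 163, 201 and 212 CPM in WT. The groups overlapped, and the log2 fold change was 0.20 ± 0.16 (95% interval -0.17 to 0.56; edgeR adjusted p = 0.955), or 0.09 without WT replicate 1. Cand1 (ENSMUSG00000020114, chromosome 10), the exchange factor, had 149.7, 103 and 162 CPM in Dcaf8 KO, against 145, 115 and 113 CPM in WT. One Dcaf8 KO library was the lowest of all 6, and the log2 fold change was 0.18 ± 0.22 (95% interval -0.34 to 0.69; edgeR adjusted p = 0.971). Leaving out 1 library gave 0.05 without Dcaf8 KO replicate 3 and 0.33 without Dcaf8 KO replicate 2 as the extremes.

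The spread between mice of one genotype differed among these genes. The pooled within-genotype SD of log2 CPM was 0.13 for Rbx1 and 0.17 for Nedd8, at the 3.68th and 6.94th percentiles of all genes tested, whose median was 0.54. It was 0.28 for Dda1 and for Cand1 and 0.34 for Cul4a and for Ddb1. Dcaf8 had 0.41, Det1 0.64, Cul4b 0.70 and Ddb2 0.87, the last at the 68.2nd percentile. The 3 genes with the largest within-genotype SD of log2 CPM were also the 3 with the lowest mean CPM, and the part of sampling from 50 cells in this was not tested.

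Levels of different genes were compared after division by the length of the transcript with the longest coding sequence. On this scale, in CPM per kilobase, Nedd8 averaged 268 ± 23.0 in Dcaf8 KO and 233 ± 30.8 in WT, Rbx1 averaged 138 ± 15.1 in Dcaf8 KO and 138 ± 9.33 in WT, and Dda1 averaged 77.1 ± 3.29 in Dcaf8 KO and 78.2 ± 21.9 in WT (SD, n = 3 each). The order Nedd8, Rbx1, Dda1 held without overlap of ranges in both genotypes. Ddb1 followed with 63.4 ± 15.5 in Dcaf8 KO and 69.6 ± 14.02 CPM per kilobase in WT, and its range overlapped that of Dda1 in both. Dda1 was above Ddb1 in 2 Dcaf8 KO libraries and in 1 WT library. Cul4a had 38.5 ± 6.48 CPM per kilobase in Dcaf8 KO and 32.5 ± 9.37 in WT, and Ddb2 had 31.8 ± 12.9 in Dcaf8 KO and 40.3 ± 22 in WT. Cand1 had 17.8 ± 3.97 CPM per kilobase in Dcaf8 KO and 15.98 ± 2.35 in WT. Cul4b had 12.4 ± 4.99 in Dcaf8 KO and 11.2 ± 6.86 in WT, and Det1 had 11.1 ± 3.85 in Dcaf8 KO and 11.2 ± 5.41 in WT. Dcaf8 itself had 11.3 ± 4.12 CPM per kilobase in Dcaf8 KO and 56.3 ± 10.9 in WT: the ninth of the 10 genes in Dcaf8 KO, beside Cul4b and Det1, and the fifth in WT, below Ddb1. In Dcaf8 KO every neighbouring pair below Dda1 overlapped, and in WT the one such pair without overlap was Cul4a above Cand1. Whether the amplification captured short and long transcripts equally was not tested, so the order is one of read density.

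**Figure D4:**
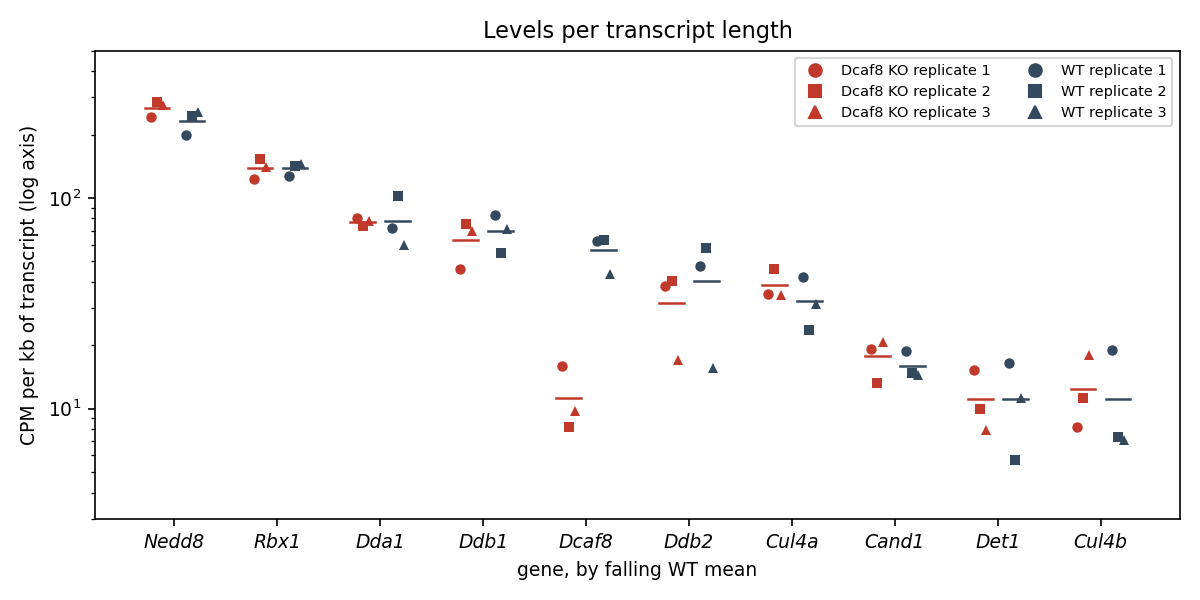
Level per kilobase of transcript (CPM per kilobase, logarithmic axis) of the 10 genes in every library, ordered by the WT mean, with Dcaf8 KO left of WT. Nedd8, Rbx1 and Dda1 have the highest means in both genotypes, with the range of Dda1 overlapping that of Ddb1. Dcaf8 averages 11.3 in Dcaf8 KO and 56.3 in WT.

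The plot of levels per kilobase places the ligase genes on one scale of read density. The genes for the modifier and the RING protein are highest, and Cul4b, Det1 and, in the knockout, Dcaf8 are lowest.

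In the GENCODE annotation of GRCm38, 6 of the 10 genes have exons that overlap a gene on the opposite strand. The labels do not say whether the counting used strand. Dcaf8 shares 123 exon bases with Pea15a, Ddb1 328 with Tkfc, Ddb2 652 with Acp2, Nedd8 184 with Gmpr2, Dda1 80 with Ano8 and Det1 10 with 1700011D18Rik. Without strand, reads from such a stretch cannot be told apart. Gmpr2, a nucleotide-metabolism enzyme, averaged 141 ± 11.9 CPM in Dcaf8 KO and 188 ± 47.4 CPM in WT, with a log2 fold change of -0.41 ± 0.21 (edgeR adjusted p = 0.881), of the sign opposite to Nedd8. Acp2, a lysosomal phosphatase, had 72.0, 48.4 and 37.1 CPM in Dcaf8 KO, against 72.4, 59.2 and 35.4 CPM in WT. It too was lowest in WT replicate 3 and Dcaf8 KO replicate 3, like Ddb2, with a log2 fold change of -0.06 ± 0.38. Pea15a, Tkfc and Ano8 had log2 fold changes of 0.18 ± 0.30, -0.23 ± 0.36 and -0.69 ± 0.78, and 1700011D18Rik had no counts. Other close copies held almost no reads: 1 count in WT replicate 3 for the Cul4a pseudogene AC165087.1, and 0 in all libraries for Gm44155, Gm44156, Gm45296 and Dcaf8l.

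Promoter sequences, 250 bases before to 50 after the start, were found for 9 of the 10 genes in RefSeq (GRCm38.p6). Their median GC content was 66.3%, against 60.3% for promoters of the genes tested and 52.7% for all 32851 promoters. The median ratio of observed to expected CG pairs was 0.794, against 0.745 for promoters of the genes tested and 0.384 for all. Those of 3 genes are printed, 5′ to 3′ on the gene's strand with each CG pair in capitals, because they belong to the targeted gene and to the scaffold pair, which hold the most and the fewest CG pairs of the 9 (Cul4a 43, Cul4b 14; Dcaf8 has 19).
Dcaf8, chr1:172147765-172148064, plus strand: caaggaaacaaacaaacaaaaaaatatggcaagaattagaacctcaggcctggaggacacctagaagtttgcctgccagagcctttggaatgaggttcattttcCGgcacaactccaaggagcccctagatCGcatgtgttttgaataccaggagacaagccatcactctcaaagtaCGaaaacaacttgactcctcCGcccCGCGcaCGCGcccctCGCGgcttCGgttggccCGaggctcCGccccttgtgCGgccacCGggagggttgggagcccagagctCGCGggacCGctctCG
Cul4a, chr8:13105373-13105672, plus strand: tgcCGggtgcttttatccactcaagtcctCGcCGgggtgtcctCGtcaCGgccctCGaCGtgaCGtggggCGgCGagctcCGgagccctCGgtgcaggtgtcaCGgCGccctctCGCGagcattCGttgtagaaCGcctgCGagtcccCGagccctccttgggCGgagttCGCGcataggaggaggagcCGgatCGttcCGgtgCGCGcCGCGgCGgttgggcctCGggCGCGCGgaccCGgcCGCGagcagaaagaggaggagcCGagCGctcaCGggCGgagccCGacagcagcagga
Cul4b, chrX:38576147-38576446, minus strand: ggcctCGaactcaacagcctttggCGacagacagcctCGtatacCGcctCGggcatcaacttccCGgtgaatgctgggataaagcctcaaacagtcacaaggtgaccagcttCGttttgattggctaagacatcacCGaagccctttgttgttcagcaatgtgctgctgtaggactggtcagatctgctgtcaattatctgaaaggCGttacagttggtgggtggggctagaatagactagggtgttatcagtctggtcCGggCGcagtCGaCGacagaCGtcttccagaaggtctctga
On either strand, GGGCGG, the core of a GC box, occurred in 7 of the 9 promoters, Dcaf8 and Cul4a among them, against 60.9% of promoters of the genes tested and 35.7% of all. TATAAA occurred in 0 of the 9, against 7.08% and 13.6%. CCAAT occurred in 3, those of Dda1, Rbx1 and Cul4b, against 37.9% and 37.4%, and CCGGAAG, an ETS-type word, in 2, those of Det1 and Nedd8, against 17.7% and 8.86%. TGACGT occurred in 1, that of Cul4a, against 11.5% and 7.51%, and CACGTG in 0, against 10% and 7.15%. These are matches of letters in a fixed window, with no word contained in another and overlaps at the edges left in.

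The wider pathway was described through 7 lists with 77 genes, all of which passed the filter. By edgeR 0 of the 77 were called and 7 (9.09%) had an unadjusted p under 0.05, against 5.82% of all genes tested. DESeq2 called 1, Cops2, against 0.902% of the genes to which it gave an adjusted p. The groups were separated with Dcaf8 KO higher for 6 genes (7.79%) and lower for 4 (5.19%), shares close to those of all genes given above. In all, 40 of the 77 (51.9%) had a positive log2 fold change.

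Of the 10 genes of the COP9 signalosome, which takes NEDD8 off cullins, 7 had lower and 3 higher means in Dcaf8 KO, with a median log2 fold change of -0.14, which was -0.05 without Dcaf8 KO replicate 1. Cops2, a scaffold subunit of the signalosome, had 80.0, 83.9 and 80.4 CPM in Dcaf8 KO, against 115, 146 and 139 CPM in WT. The groups were separated, with a log2 fold change of -0.72 ± 0.19; the adjusted p was 0.739 by edgeR and 0.00286 by DESeq2. Without WT replicate 2 and Dcaf8 KO replicate 3 the Cops2 log2 fold change was -0.64. Cops3, another subunit, had 191, 247 and 232 CPM in Dcaf8 KO, against 259, 306 and 292 CPM in WT. Its groups were also separated, with a log2 fold change of -0.37 ± 0.15 (edgeR adjusted p = 0.841). At an unadjusted edgeR p under 0.05, 2 of the 10 genes were lower in Dcaf8 KO, Cops2 and Cops3, and 0 were higher. Over all genes tested, 5.82% had such a p in either direction. Cops5, which carries the NEDD8-cleaving activity, averaged 178 ± 11.5 CPM in Dcaf8 KO and 160 ± 25.4 CPM in WT, with overlap; it was picked for its role after its values were seen.

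Among 15 other neddylation enzymes and regulators, 7 were higher and 8 lower, with a median log2 fold change of -0.09 that was 0.07 without WT replicate 1. Dcun1d3, of a family that helps NEDD8 onto cullins, had 6.53, 7.38 and 8.28 CPM in Dcaf8 KO, against 2.53, 3.10 and 0.863 CPM in WT. All Dcaf8 KO libraries were above all WT libraries, at a low level, with a log2 fold change of 1.77 ± 0.58 (edgeR adjusted p = 0.747). Nub1, which targets NEDD8 for breakdown, had a log2 fold change of 0.40 ± 0.21, also with separated groups (edgeR adjusted p = 0.883), and 0.23 without Dcaf8 KO replicate 1. Rnf7, the RING protein that partners CUL5, was the 1 gene of this list with separated groups and Dcaf8 KO lower, and is named after its values were seen: it averaged 142 ± 1.70 CPM in Dcaf8 KO and 164 ± 17.8 CPM in WT, with a log2 fold change of -0.21 ± 0.16 (edgeR adjusted p = 0.945).

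Of 22 other receptors that dock on DDB1, 14 had higher and 8 lower means in Dcaf8 KO, with a median log2 fold change of 0.20. The median was 0.05 without Dcaf8 KO replicate 3 and 0.36 without WT replicate 1, and 0.01 over all genes. Among these receptors, 4 of 22 (18.2%) had an unadjusted p under 0.05 with Dcaf8 KO higher and 0 with Dcaf8 KO lower. Of all genes tested, 3.47% had such a p with Dcaf8 KO higher. The list was chosen with earlier results of these data known, so these shares are a description with no test. Wdr76, a WD40 protein linked to DDB1, had 25.2, 17.05 and 30.1 CPM in Dcaf8 KO, against 5.52, 10.9 and 5.68 CPM in WT. Its groups were separated, with a log2 fold change of 1.74 ± 0.49, and the adjusted p was 0.739 by edgeR and 0.0674 by DESeq2. Fbxw5, an F-box and WD40 protein, had 158, 169 and 125 CPM in Dcaf8 KO, against 117, 78.6 and 66.4 CPM in WT, separated, with a log2 fold change of 0.79 ± 0.25 (edgeR adjusted p = 0.752). Dcaf5 and Ambra1 were the other 2, named after their values were seen. Dcaf5 averaged 16.5 ± 6.14 CPM in Dcaf8 KO and 4.73 ± 5.04 CPM in WT. Its groups were separated, with a log2 fold change of 1.78 ± 0.71 (edgeR adjusted p = 0.841). Ambra1 averaged 12.1 ± 9.04 CPM in Dcaf8 KO and 2.77 ± 2.82 CPM in WT. The Ambra1 groups overlapped, with a log2 fold change of 2.31 ± 0.87 (edgeR adjusted p = 0.818).

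The remaining lists had no gene with an unadjusted p under 0.05. The 6 other cullins had 3 higher and 3 lower and a median of 0.04, or -0.14 without WT replicate 3. Cul3 had a log2 fold change of 0.74 ± 0.56, with 0.35 without Dcaf8 KO replicate 2 and 1.201 without WT replicate 1 as the extremes of leaving out 1 library. Cul7 had 0.70 ± 0.53, with 0.40 without Dcaf8 KO replicate 3 and 1.04 without Dcaf8 KO replicate 1 as the extremes. The 12 E2 and RBR partners of cullin-RING ligases had 6 higher and 6 lower and a median of -0.05. There, Ube2d1 had a log2 fold change of -0.50 ± 0.27, and Ube2g1 had -0.24 ± 0.14, with groups separated and Dcaf8 KO lower. The 7 genes of DNA damage recognition and repair had 4 higher and 3 lower, with a median of 0.02, or -0.08 without Dcaf8 KO replicate 3. Xpa had a log2 fold change of -0.26 ± 0.33, or -0.10 without Dcaf8 KO replicate 3 and -0.48 without Dcaf8 KO replicate 1. Uvssa had -0.36 ± 0.50, or -0.02 without WT replicate 3 and -0.71 without WT replicate 2. The 5 ubiquitin and E1 genes had 3 higher and 2 lower and a median of 0.05, or -0.08 without Dcaf8 KO replicate 3, with log2 fold changes of -0.22 ± 0.12 for Ubb and 0.26 ± 0.16 for Uba1.

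**Figure D5:**
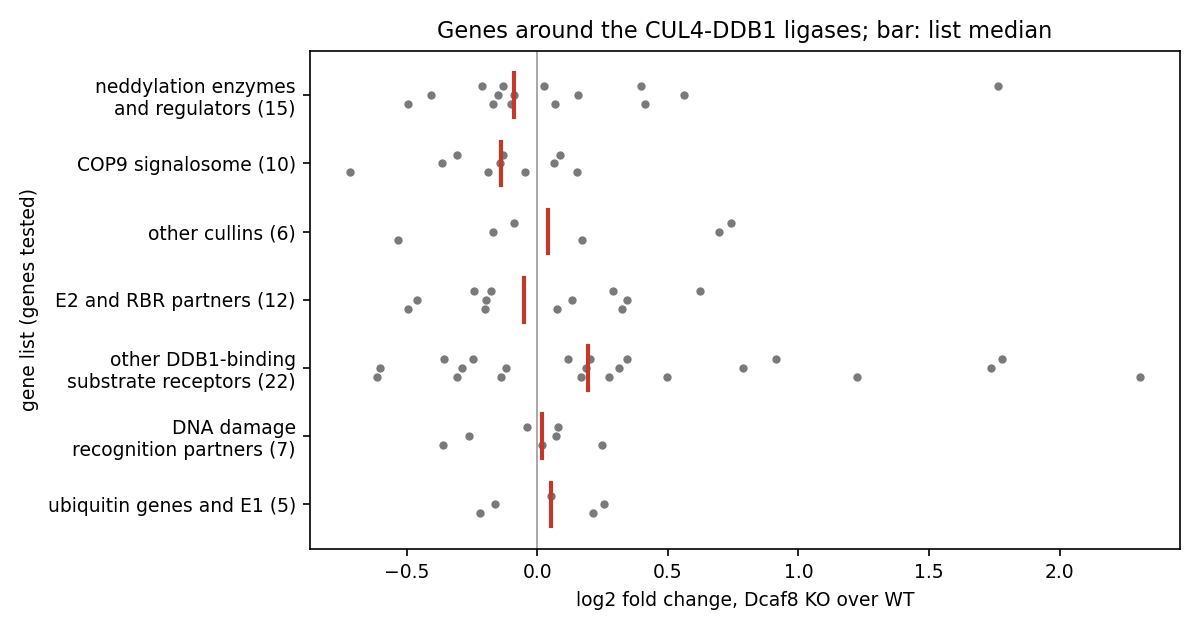
Log2 fold change of Dcaf8 KO over WT for each gene of the 7 pathway lists (points), with the list medians as bars. Cops2 at -0.72 and Cops3 at -0.37 lie at the low end of the COP9 list, and Wdr76 at 1.74 is among the high values of the DDB1-binding receptors.

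The plot of pathway lists shows list medians between -0.14 and 0.20, with single genes on either side.

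Genes whose profile over the 6 libraries was most like that of Dcaf8 were ranked by the root-mean-square distance between centred log2 CPM values, among 11507 genes with a mean of at least 5 CPM. The nearest was Akap11, an anchoring protein of protein kinase A, at a distance of 0.39, where the median gene was at 1.32. Akap11 had 11.2, 8.21 and 4.12 CPM in Dcaf8 KO, against 36.9, 35.3 and 21.8 CPM in WT. Its groups were separated, as the ranking favours. Zfp719, a zinc-finger gene, followed at 0.43, then Adat1, a tRNA-editing deaminase, at 0.47, Secisbp2l, a relative of the selenoprotein-synthesis factor SECISBP2, at 0.48, and Fam168a at 0.50. The groups overlapped for Fam168a and not for the others. These likenesses are over 6 libraries and were chosen for resemblance, so they are a description with no test.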

How the data were processed

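Raw read counts per Ensembl gene were deposited by the authors, with 1 column per library and no pooling. Trimmomatic 0.39, HISAT2 2.2.1, Picard 2.26.1, HTSeq 1.99.2, DESeq2 1.38.3 and build mm39 are named, without roles, per the submitters' processing notes; the sources used here do not give the annotation release or the strand setting. Symbols matched 94.0% of identifiers. From the deposited counts, edgeR 4.0.16 (R 4.3.3) was run over the whole table: filterByExpr (minimum count 10, minimum total 15), TMM, and a robust quasi-likelihood fit (legacy off) with genotype as the only term. Benjamini-Hochberg adjustment covered all genes tested, with a threshold of 0.05. Single-gene levels are TMM-normalised CPM and marker levels are CPM of the total count. DESeq2 1.42.0, limma 3.58.1, other normalizations, filters and left-out libraries were alternatives. Dcaf8 CPM and within-library ratios of raw counts went into a two-sided exact permutation test with 20 assignments of 3 against 3. Gene models, overlaps and shared coding runs (24 bases or more) came from GENCODE for GRCm38, another build than the counts.

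The libraries come from separate mice, 3 per genotype. Counts carry no molecular identifiers, so they are not independent molecules. The pathway lists named by rule the 2 tested genes with the smallest unadjusted p each. Members, lists and rules were chosen with earlier results of these data known. The fitting code was tested on simulated data. Same-numbered libraries did not deviate together, so the replicate numbers were not used as pairs. Some sequence and marker items are not reported here.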

Additional observations from a re-analysis of the deposited data

How the results depend on the processing

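Over 16 alternative fits, the Dcaf8 log2 fold change stayed between -2.64 and -2.07 and was called by DESeq2 alone (-2.32); 0 of the other 9 genes were called under any of them. DESeq2 called 1 pathway gene, and the others 0. edgeR's common biological coefficient of variation was 75.1%. Dcaf8, at 20.03% of the WT mean, had an edgeR unadjusted p of 5.36e-05 and an edgeR adjusted p of 0.739. Its pooled within-genotype SD of log2 CPM was 0.41, where the median over all genes tested was 0.54. The part of spread between libraries in the adjusted p was not tested. Same-numbered libraries had deviations correlated at 0.06, -0.04 and 0.01. With the replicate block, the Dcaf8 value was -2.29 and 0 genes were called; not every library correlated best with its own number.

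Genes that no test called changed sign, Ano8 (-0.69) and Ddb2 (-0.37) among them; the causes were not tested. With WT replicate 2 and Dcaf8 KO replicate 3 both left out, an alternative chosen after seeing the data, the log2 fold changes were -0.45 for Cul4b, 0.001 for Rbx1, 0.22 for Dda1, -0.076 for Det1, 0.33 for Ddb2, 0.047 for Xpa and 0.21 for Acp2. Rbx1 was 0.002 with the legacy method and 0.005 with limma-voom. Det1 was -0.014 with the legacy method, -0.022 with DESeq2 and -0.034 with the replicate block, where Dda1 was 0.015. Leaving out 1 library at a time gave -0.21 to 0.80 for Cul4b, -0.29 to 0.052 for Ddb1, -0.075 to 0.074 for Rbx1, -0.18 to 0.23 for Dda1, -0.33 to 0.41 for Det1 and -0.76 to 0.001 for Ddb2. It gave -0.057 to 0.36 for Pea15a, -1.11 to 0.40 for Ano8, -0.40 to 0.16 for Acp2 and -0.37 to 0.41 for Xpc. The Cul4b share differed between genotypes by -4.77 to 3.11 percentage points, and Dcaf8 per 100 Ddb1 counts by -78.4 to -50.7.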
